A study of Mus musculus with 20 samples.

Results

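The potassium channel genes described here are the 91 gene symbols that begin with Kcn, followed by family letters and a number, out of 19269 symbols in the count table. They fall into 20 families by their letters and were followed through all 20 libraries. The libraries hold polyA RNA from punches of the preoptic area, the hypothalamic region where most neurons that make gonadotropin-releasing hormone (GnRH) lie, of female mice. Ribosomes carrying a GFP-tagged L10a protein were pulled down with an antibody, so each pool of 3 to 4 mice could give an immunoprecipitate (IP) and a depleted supernatant.

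Adults were 70 to 150 days old and in diestrus, and young mice were 21 days old. The adult GFP-positive pool, from mice carrying both GnRH-Cre and floxed L10a-GFP, gave 1 IP and 1 supernatant library. The 2 adult negative-control pools carried GnRH-Cre only, and gave 2 IP and 2 supernatant libraries. The 3 young negative-control pools gave 3 IP and 3 supernatant libraries; pool 3 had the floxed L10a-GFP allele without Cre, and pools 1 and 2 neither allele (wild type). The other 8 libraries are supernatants of 4 pools of an earlier series, called prior pools here, all of the GFP-positive genotype. Of these, 2 were adult and 2 young, and each was sequenced again for this series (the repeat set) beside its earlier library (the earlier set). The remaining pools are called new pools. The Cre driver puts the tag in GnRH neurons, so pull-downs of negative-control mice hold RNA recovered without any tag. Age and genotype changed together among the new pools, where every adult pool and no young pool carried GnRH-Cre. Their effects cannot be told apart there. The labels used here give no prenatal treatment for the prior pools, although the series title names prenatal androgenization.

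Total counts were between 27.7 and 50.5 M per library. A floor of 3 counts corresponded to 0.0588 to 0.109 counts per M (CPM), which covers counting error only. Levels are CPM scaled by trimmed-mean (TMM) factors over all 20 libraries. Differences were tested with edgeR's quasi-likelihood test on the counts of all genes, and called at an adjusted p under 0.05. Gnrh1 reached 1457 CPM in the IP of the GFP-positive pool, against 7.85 to 33.5 CPM in the 5 negative IPs. The summed level of 8 preoptic and hypothalamic neuron markers was 319.5 to 430.2 CPM in the 5 adult and 193 to 356 CPM in the 5 young supernatants compared by age.

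Potassium channels let potassium leave or enter cells, and so set the resting potential of neurons, end their action potentials and limit their firing rate. Voltage-gated families (Kcna, Kcnb, Kcnc, Kcnd, Kcnh, Kcnq) open on depolarisation, Kcnma and Kcnn members respond to calcium, Kcnt members to sodium, Kcnj members rectify inward, and the tandem-pore Kcnk members carry leak current. Kcnf, Kcng, Kcns and Kcnv encode silent subunits that modify Kcnb channels, and Kcnip, Kcnab, Kcne and Kcnmb encode auxiliary subunits that change the gating or traffic of the pores.

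All 91 genes had at least 1 count in some library, but 3 had at most 3 counts in every library. Of the 91, 75 averaged more than 1 CPM over the 14 supernatants, 41 of them more than 10 CPM, and 16 averaged 1 CPM or less. Of each library's counts, members made up 0.237% to 0.325% in the 6 IPs and 0.174% to 0.230% in the 14 supernatants.

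To compare genes, levels were divided by the length of the longest annotated transcript, in CPM per kb. On this scale auxiliary subunits led the supernatants. Kcnip1 averaged 75.2 ± 5.07 CPM per kb and Kcnip4 70.2 ± 7.75 CPM per kb (SD, n = 14 libraries). Both encode calcium-binding partners of Kcnd channels, and the difference between them was smaller than their spread. Kcnab2, which encodes a beta subunit of Kcna channels, followed at 56.9 ± 14.3 CPM per kb, and Kcnmb4, a neuronal beta subunit of the large-conductance channel, at 48.9 ± 6.32 CPM per kb. Next came Kcnab3 at 26.7 ± 5.54, Kcnab1 at 24.0 ± 4.46, the tandem-pore gene Kcnk1 at 23.8 ± 1.88 and Kcnip3 at 21.6 ± 3.69 CPM per kb, which did not differ beyond their spread.

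The highest voltage-gated pore genes per length were Kcna1, which encodes an axonal low-threshold channel, at 16.5 ± 3.22 CPM per kb, and Kcnc1, a channel of fast-spiking neurons, at 15.4 ± 3.55 CPM per kb. The pore of the large-conductance channel, Kcnma1, averaged 2.92 ± 0.507 CPM per kb, on this scale well below its subunit Kcnmb4. Likewise Kcnd2, at 7.33 ± 1.23 CPM per kb, lay below each of the 4 Kcnip genes, the lowest of which was Kcnip2 at 18.7 ± 2.82 CPM per kb. Both gaps were smaller before division by length. Kcnma1 then averaged 35.3 ± 6.13 CPM and Kcnmb4 66.9 ± 8.64 CPM. Kcnd2, at 37.8 ± 6.35 CPM, and Kcnip2, at 44.9 ± 6.75 CPM, overlapped in their spread. Kcnc1, at 119 ± 27.6 CPM, lay above Kcnmb4. As shares of the summed member level per length, the Kcnip family held 31.1%, Kcnab 18.0%, Kcnk 9.23%, Kcnmb 8.41%, Kcna 8.32%, Kcnc 6.88% and Kcnj 5.59%. The 14 libraries include 4 pools that are present in both sequencing sets, so their SD mixes pools and sequencing sets, and the longest transcript need not be the one expressed.

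**Figure D1:**
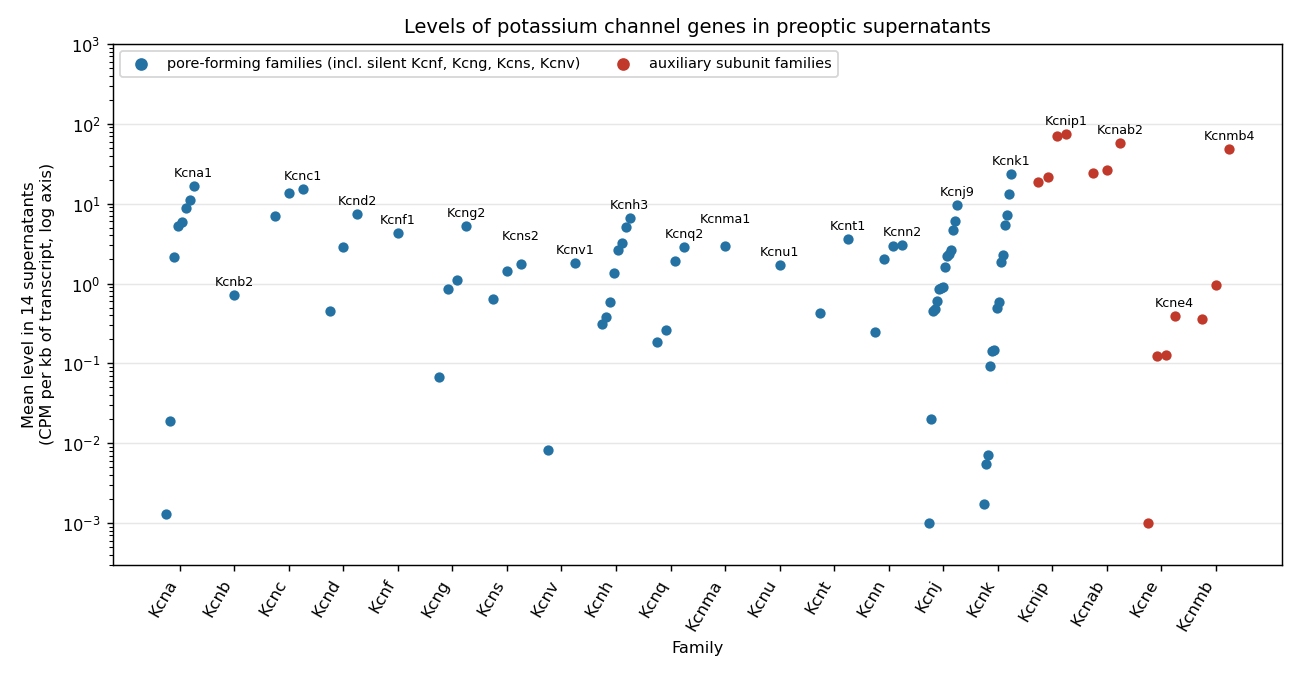
Mean level of 88 of the 91 genes over 14 supernatants, in CPM per kb of the longest transcript on a log axis, by family, with the highest plotted gene of each family named. Means under 0.001 CPM per kb are drawn at 0.001. The auxiliary families Kcnip and Kcnab and the gene Kcnmb4 lie at the top, with Kcnip1 at 75.2 CPM per kb.

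The comparison of age asked which members differ between adult and young preoptic supernatant, with 1 library from each of 10 pools (5 adult and 5 young, prior pools by their repeat library) and pool origin as a term in the fit. In bulk tissue, fewer cells of a type and less RNA per cell cannot be told apart. Every adult new pool and no young new pool carried GnRH-Cre, so age and genotype cannot be told apart among them. The prior pools shared their genotype. Of the 78 members that passed the filter on low counts, 5 rose in adults, which is 6.41% against 4.16% of the 15537 genes tested. None fell by edgeR, against 5.6% of all genes. At an unadjusted p under 0.05 by edgeR there were 14 members (17.9%, against 25.1% of all genes), none of them with a negative difference. DESeq2 and limma voom also called none lower, while Kcnj10 was called lower without young negative pool 3. Among the members that rose were the voltage-gated Kcna1 and Kcnd3, the EAG-type Kcnh4 and the tandem-pore Kcnk13.

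Small differences leaned the same way. The median log2 fold change of adult over young was 0.15 over the 78 members and 0.00394 over all genes, and 58 of 78 members (74.4%) lay above 0, against 50.6% of all genes. Adult means exceeded young means in both the new and the prior pools for 44 of 78 members (56.4%), against 34.7% of all genes. They were lower in both for 5 members (6.41%), Kcnj10, Kcnk4, Kcnq1, Kcns1 and Kcnu1, against 32.6% of all genes. Those 5 were named after their values were seen.

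By role, 14 of 15 tested genes of the Kcna to Kcnd pores lay above 0 (3 called, median 0.21), as did 10 of 13 Kcnh and Kcnq genes (1 called, median 0.31). So did 10 of 13 inward rectifiers (0 called, median 0.22) and 7 of 10 tandem-pore genes (1 called, median 0.11). Of the auxiliary subunits 5 of 11 lay above 0 (0 called), with a median of -0.011. The 4 Kcnip genes, among the most abundant members per length, were between -0.033 and 0.089. Kcnip1 itself differed by -0.011 ± 0.072 (SE) and Kcnab2 by -0.098 ± 0.130.

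**Figure D2:**
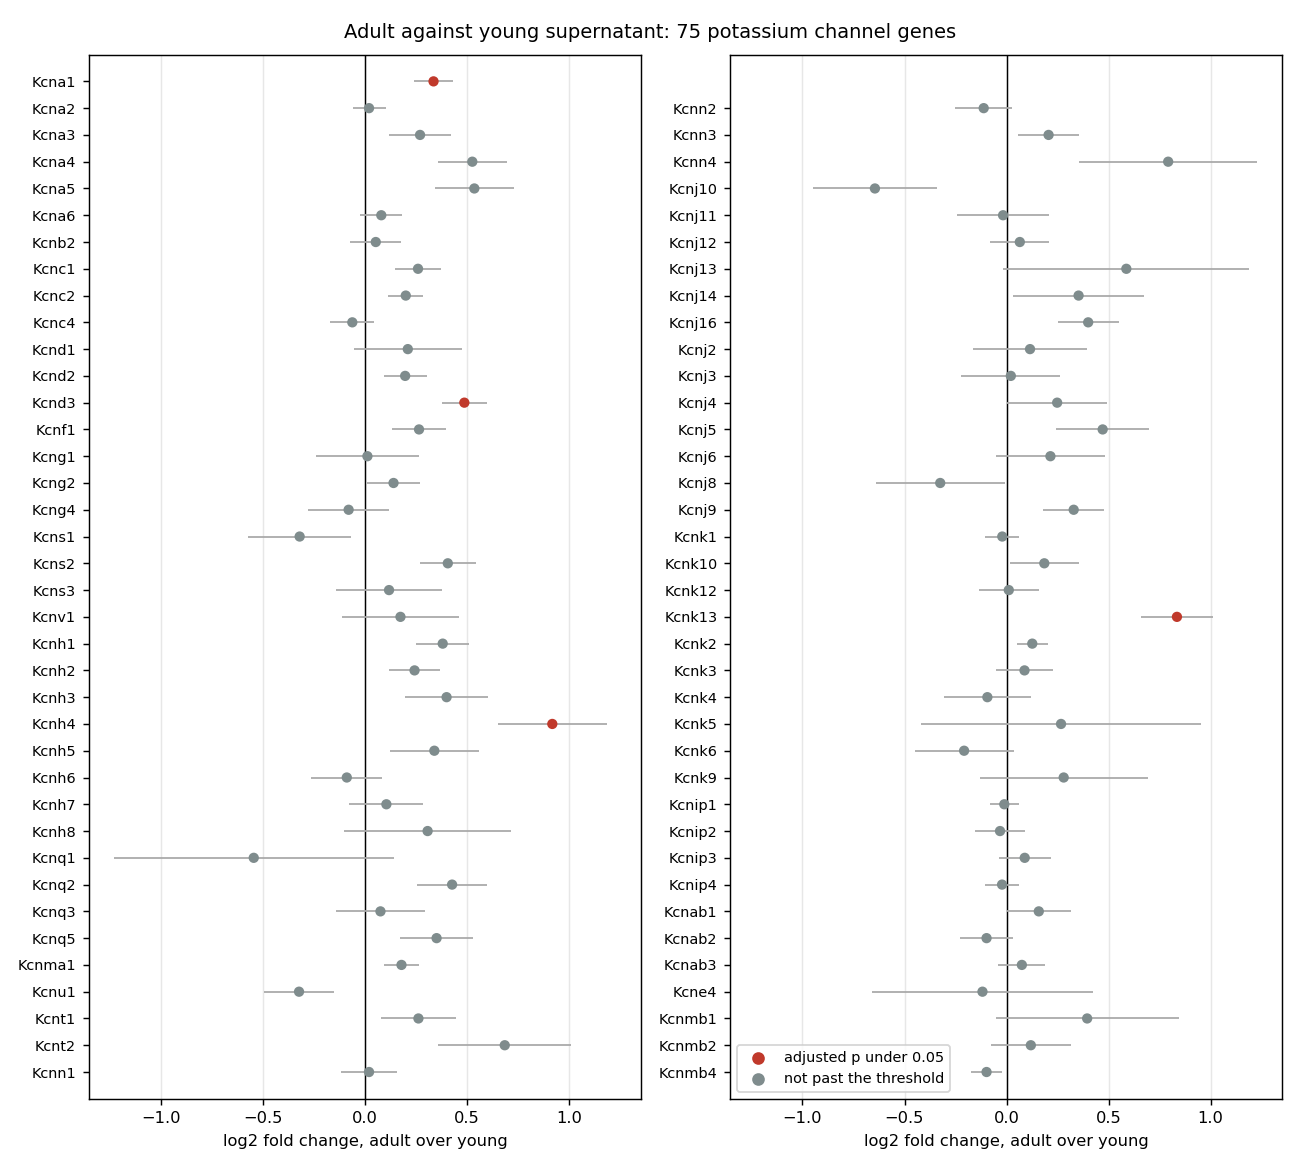
Log2 fold change of adult over young supernatant with its standard error for 75 of the 78 members tested, ordered by family. The 4 called members plotted (red) are all above 0, and 56 of the 75 points lie above 0.

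Kcnk13 encodes the tandem-pore channel THIK-1, known as a main resting potassium conductance of microglia. It was at 7.12 CPM in the adult GFP-positive pool, 10.9 and 9.53 CPM in the adult negative pools and 7.76 and 9.17 CPM in the adult prior pools. Young supernatants had 4.51, 5.82 and 4.06 CPM in the negative pools and 4.28 and 6.20 CPM in the prior pools. Every adult pool lay above every young pool, which held for 2 of 78 members (2.56%, the other being the inward rectifier Kcnj16) and for 2.68% of all genes. For 0 members every adult pool lay below every young pool, against 3.68% of all genes. Kcnk13 averaged 8.89 ± 1.48 CPM in adults and 4.97 ± 0.968 CPM in young mice (SD, n = 5 pools each), a log2 fold change of 0.83 ± 0.18 (SE, adjusted p = 0.0116 by edgeR). The call was kept in each of the 10 fits that left out 1 pool.

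Kcnd3 encodes a pore of the A-type current, which delays firing after a depolarising step. It was at 22.4 CPM in the adult GFP-positive pool, 19.0 and 24.2 CPM in the adult negative pools and 26.7 and 27.7 CPM in the adult prior pools. Young negative pools had 13.85, 15.6 and 13.6 CPM and young prior pools 19.7 and 23.8 CPM. Adults were higher than young mice within the new pools and within the prior pools, while the young prior pools, at 19.7 and 23.8 CPM, stood above 1 and 2 of the adult new pools. Kcnd3 averaged 24.0 ± 3.50 CPM in adults and 17.3 ± 4.38 CPM in young mice, a log2 fold change of 0.49 ± 0.11 (SE, adjusted p = 0.0159 by edgeR). Its call was also kept in each of the 10 fits without 1 pool. Without the term for pool origin the adjusted p was 0.143.

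Kcna1, the axonal low-threshold channel, was at 66.0, 78.8 and 92.2 CPM in adult new pools and 85.6 and 76.9 CPM in adult prior pools. Young new pools had 62.3, 55.8 and 68.0 CPM, and young prior pools 60.8 and 68.8 CPM. The groups overlapped only through the adult pool at 66.0 CPM, which lay under the young pools at 68.0 and 68.8 CPM. The log2 fold change was 0.34 ± 0.10 (SE, adjusted p = 0.0464 by edgeR).

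Kcnh4 encodes a member of the ELK group of EAG-type channels and was low. Adult new pools had 2.94, 2.70 and 2.06 CPM and adult prior pools 4.19 and 2.61 CPM, against 1.02, 1.80 and 1.43 CPM in young new pools and 1.20 and 2.15 CPM in young prior pools. The highest young pool, at 2.15 CPM, was just above the lowest adult pool, at 2.06 CPM. The log2 fold change was 0.92 ± 0.27 (SE, adjusted p = 0.0461 by edgeR).

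The calls of Kcna1 and Kcnh4 did not hold in most of the fits without 1 pool: 2 members were called without any one of young negative pools 1 or 2, adult negative pools 1 or 2, young prior pool 1 or adult prior pools 3 or 4. Without young prior pool 2, 9 members were called, the 5 members called in all pools with Kcna5, Kcnh1, Kcnj9 and Kcnt2. In the new pools alone 0 members were called (Kcnk13 adjusted p = 0.0579, Kcnd3 0.0526), and likewise in the prior pools alone and in the negative-control pools alone. With the earlier-set libraries of the prior pools, 4 members were called, Kcnk13, Kcnd3, Kcnh1 and Kcns2. The number of all genes called changed as well, from 731 to 1723 in the fits without 1 pool, against 1517 with all pools. It was lower still in the new, prior or negative-control pools alone. Shares by direction were not counted in these fits, so a change particular to the members cannot be told from a change over all genes. No overlap within the new pools and within the prior pools was seen for 7 members (8.97%, against 6.15% of all genes), among them Kcnc2, Kcnd3, Kcnh4, Kcnj16, Kcnk13 and Kcns2.

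**Figure D3:**
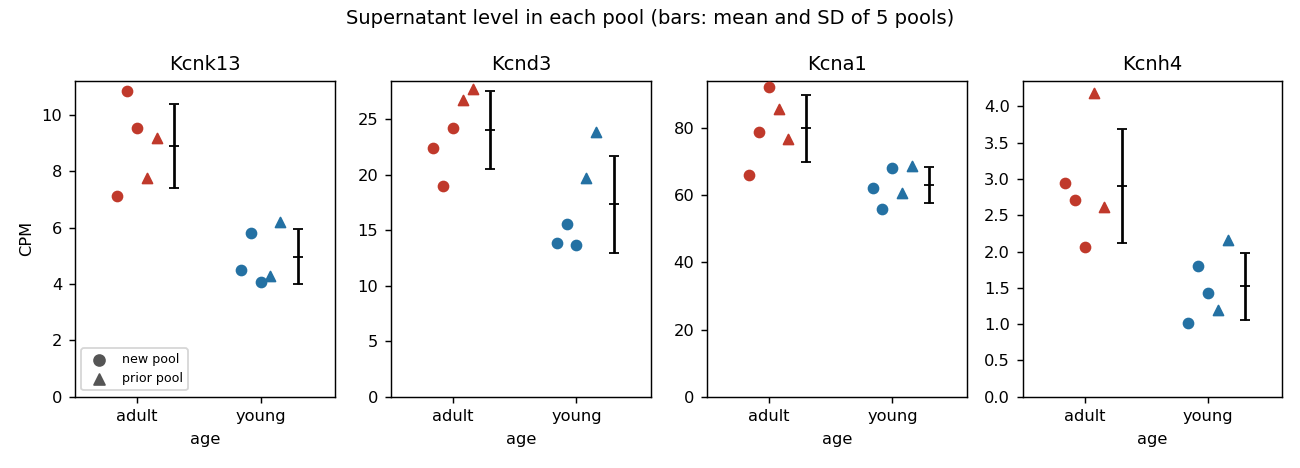
CPM of 4 members that rose with age in each of 5 adult (left) and 5 young (right) supernatant pools, with new pools as circles and prior pools as triangles, and the mean with its SD beside each group. For Kcnk13 the adult pools lie between 7.12 and 10.9 CPM, all above the young pools at 4.06 to 6.20 CPM.

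Markers of other cells differed with age in the same fit. Of 8 oligodendrocyte markers 3 were lower in adults and 0 higher, with a summed level of 2490.2 to 5355 CPM in adults and 4459 to 6877 CPM in young mice. Of 8 microglial markers 2 were higher and 0 lower, with sums of 35.0 to 76.1 CPM in adults and 29.9 to 63.0 CPM in young mice. Of 8 general neuron markers 1 was higher and 3 lower, with sums of 5235 to 6631 CPM in adults and 5888 to 6713 CPM in young mice. Of the 8 preoptic and hypothalamic neuron markers 2 were higher and 0 lower, with a median log2 fold change of 0.24, and their sums were 319.5 to 346 CPM in the adult negative pools and 193 to 285 CPM in the young negative pools. Of 8 astrocyte markers 1 was higher and 0 lower, while 1 of 4 oligodendrocyte precursor, 1 of 6 mural cell and 1 of 6 immature neuron markers were lower and 0 higher. The endothelial, meningeal, choroid plexus and ependymal lists had 0 calls. No marker of these lists was at 0 throughout, and their part in the member differences was not tested. Kcnj10, the glial inward rectifier, had between 6.25 and 18.4 CPM in adults and between 7.57 and 21.5 CPM in young mice, with overlapping groups and no call.

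Of the 4 members described above that rose with age, 3 had an entry in the RefSeq promoter table (build GRCm38.p6), and the 250 bases upstream of their annotated start are shown so that the regions of the called genes can be compared. Capitals mark a GC box.

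Kcnk13 (chr12:99964249-99964498, plus strand): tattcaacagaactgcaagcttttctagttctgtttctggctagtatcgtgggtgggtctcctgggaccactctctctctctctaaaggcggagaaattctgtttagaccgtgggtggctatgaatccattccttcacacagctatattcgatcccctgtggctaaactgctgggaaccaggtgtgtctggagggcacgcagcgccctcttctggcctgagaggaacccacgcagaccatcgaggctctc

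Kcnd3 (chr3:105451640-105451889, plus strand): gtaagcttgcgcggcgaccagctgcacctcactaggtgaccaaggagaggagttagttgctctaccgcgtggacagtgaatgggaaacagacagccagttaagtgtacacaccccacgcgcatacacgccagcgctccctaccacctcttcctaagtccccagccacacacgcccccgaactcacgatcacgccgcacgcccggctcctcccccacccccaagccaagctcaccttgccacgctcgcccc

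Kcnh4 (chr11:100759779-100760028, minus strand): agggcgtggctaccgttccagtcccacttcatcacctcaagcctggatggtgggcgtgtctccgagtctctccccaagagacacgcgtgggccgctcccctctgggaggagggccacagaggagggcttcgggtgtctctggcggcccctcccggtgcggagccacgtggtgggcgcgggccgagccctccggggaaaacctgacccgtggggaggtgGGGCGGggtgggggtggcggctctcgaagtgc

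The Kcnh4 window held 70.8% GC and 20 CG dinucleotides, the Kcnd3 window 62.8% and 18, and the Kcnk13 window 52.8% and 8, beside medians of 52.4% and 6 over all 32851 promoters. Searched on both strands, the GC box (GGGCGG) was present in the Kcnh4 window, in 41 of 91 windows listed for 66 members (45.1%) and in 32.7% of all windows. The E-box (CACGTG) was also present in the Kcnh4 window, and in 6.02% of all. The TATA box letters (TATAAA) and the CRE (TGACGTCA) were in none of the 3 windows, and in 12.4% and 1.55% of all. A match is a description of letters, not of a working site.

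The pull-down without a tag was compared with the supernatant in the 5 negative-control pools, to give the background against which a tagged pull-down would be read. Most genes of the Kcna to Kcnd families were higher in the IP, and no auxiliary subunit was called higher. Of 82 members tested, 24 rose (29.3%, against 15.8% of 16361 genes) and 3 fell (3.66%, against 16.2%). The median log2 fold change of IP over supernatant was 0.61 over the members and -0.031 over all genes. Of the 15 tested genes of the Kcna, Kcnb, Kcnc and Kcnd families 13 rose, of 13 Kcnh and Kcnq genes 3, of 8 Kcnma, Kcnu, Kcnt and Kcnn genes 3, of 13 inward rectifiers 1, of 11 tandem-pore genes 3, and of 9 silent subunits 1. Of 13 auxiliary subunits 0 rose and 2 fell. The count that rose was 15 without adult supernatant 1, and the count that fell was 11 without adult IP 2 and 6 without young IP 2.

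Kcnk10, which encodes the tandem-pore channel TREK-2, had the largest rise. It was at 19.4 and 17.6 CPM in the adult IPs and 32.9, 21.1 and 25.0 CPM in the young IPs, against 3.61 and 4.16 CPM in the adult and 4.14, 4.02 and 3.51 CPM in the young supernatants. All IPs lay far above all supernatants. The log2 fold change was 2.48 ± 0.22 (SE, adjusted p = 3.06e-05 by edgeR). It was 2.24 ± 0.34 in adult pools and 2.71 ± 0.28 in young pools.

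Kcnc1 was at 491 and 268 CPM in the adult IPs and 373, 469 and 337 CPM in the young IPs, against 112 and 146 CPM in the adult and 118, 106 and 85.0 CPM in the young supernatants. The lowest IP lay above the highest supernatant, with a log2 fold change of 1.72 ± 0.19 (SE, adjusted p = 0.000108 by edgeR).

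Other members among the 12 with the largest rises were the A-type pores Kcnd1 (log2 fold change 1.50), Kcnd3 (1.48) and Kcnd2 (1.23), the axonal Kcna1 (1.49) and Kcna2 (1.21), the inward rectifier Kcnj12 (1.26) and the acid-sensitive leak gene Kcnk3 (1.17). Their adjusted p-values by edgeR ran from 8.64e-05 for Kcna1 to 0.0434 for Kcnd1. Further members that rose were Kcnma1 (0.92 ± 0.13), Kcnn2 of the small-conductance channels (0.90 ± 0.20) and the EAG-type Kcnh1 (0.97 ± 0.18) and Kcnh2 (0.99 ± 0.21). With the pool as a block, Kcnd1 and Kcnt1 were among those that lost their calls (adjusted p = 0.13 and 0.101 by edgeR) and Kcnab2 became lower (log2 fold change -0.30, adjusted p = 0.0277). Every IP lay above every supernatant for 20 members (24.4%, against 12.2% of all genes) and below for 1, Kcnip4 (1.22%, against 11.7%).

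Kcnip4 had 104 and 97.1 CPM in the adult IPs and 113.0, 105 and 113 CPM in the young IPs, against 174 and 138 CPM in the adult and 165, 183 and 165 CPM in the young supernatants. The lowest supernatant lay above the highest IP, with a log2 fold change of -0.66 ± 0.10 (SE, adjusted p = 0.000504 by edgeR). Kcnip1, Kcnmb4 and Kcnk1, also abundant per length, differed by -0.22 ± 0.09, -0.28 ± 0.13 and 0.06 ± 0.15, none of them past the threshold.

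Kcns1, a silent subunit, fell in the combined fit, but the ages went apart. It had no count in either adult IP, against 1.32 and 1.76 CPM in the adult supernatants. By a floor of 3 counts per library this is at least 18.5-fold lower, which covers counting error only and not loss of an RNA in the pull-down. Young IPs had 3.57, 1.63 and 2.53 CPM and young supernatants 1.53, 2.22 and 2.17 CPM, which overlapped. The third member that fell, the auxiliary Kcne3, was at 0 in all 5 negative IPs and at 0.316 CPM or less in their supernatants, near the floor. The fitted fold changes of both depend on the prior count and are not bounds. Between 13 and 20 members were at 0 in each IP library and between 6 and 9 in each supernatant. Of those at 0, 5 in adult negative IP 1 and 1 in adult negative IP 2 had a supernatant mean above 1 CPM, against 0 in the adult negative supernatants.

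Cell markers also differed between IP and supernatant. Of 8 general neuron markers 3 were higher and 2 lower, with sums of 6097 to 6159 CPM in the adult and 7650.1 to 9336 CPM in the young IPs, against 5235 to 5364 CPM in the adult and 5888 to 6285 CPM in the young supernatants. Of 6 immature neuron markers 3 were higher and 0 lower (median log2 fold change 0.43), with sums of 247 to 323 CPM in the IPs and 184 to 243 CPM in the supernatants, which did not overlap. Microglial markers went the other way, with 3 of 8 lower and 0 higher (median -0.44) and sums of 40.7 to 67.3 CPM in the IPs and 52.2 to 76.1 CPM in the supernatants. Of 4 oligodendrocyte precursor markers 2 were higher, of 8 astrocyte markers 2 and of 6 mural cell markers 1, with 0 lower, and the other 6 lists had 0 calls. Their part in the member differences was not tested.

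Members that rose had long transcripts. Their median length was 5216.5 nt, against 3808.5 nt over the members tested and 3049 nt over all genes tested. Over genes with a mean of at least 1 CPM, the percentage that rose climbed over 4 bins of transcript length with equal numbers of genes, shortest first, as 2.29%, 9.81%, 18.4% and 41.9%. Of the members in those bins 0 of 5, 1 of 19, 7 of 24 and 16 of 26 rose. With per-library offsets for length and GC content, 13 of the 82 members tested were called higher, 12 of them shared with the fit above. The share of all genes called higher with these offsets was not counted, so the 13 have no background beside them. Kcnk10, Kcnc1, Kcna1, Kcnd2 and Kcnd3 were among the 12, while Kcnma1 moved to -0.087 (adjusted p = 0.73 by edgeR), Kcna2 to 0.17 (0.535) and Kcnip4 to -0.29 (0.0535). Kcnab2, not called in the fit above, was called lower with the offsets (-0.605, adjusted p = 0.0195 by edgeR). The auxiliary subunits had a median transcript length of 2538 nt and the Kcna to Kcnd pores of 5281 nt.

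**Figure D4:**
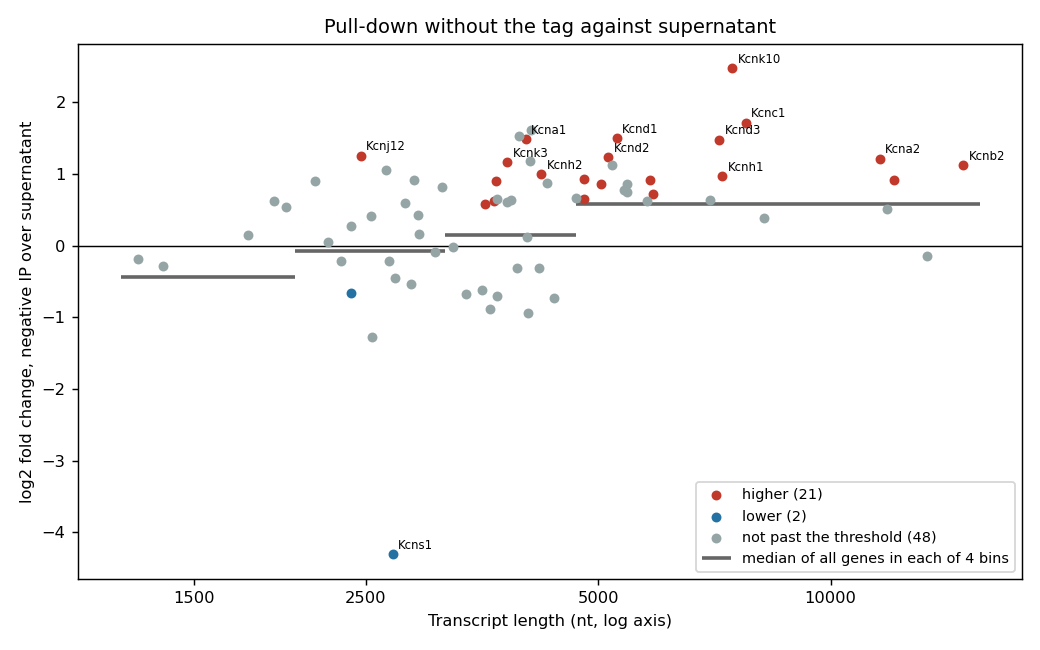
Log2 fold change of negative IP over supernatant against transcript length (log axis) for 71 of the 74 members with a mean of at least 1 CPM, with the median of all genes in each of 4 length bins as bars and the called members with the largest differences named. The bars climb with length and most of the called members lie to the right. The fitted value of Kcns1 is no bound, since both adult IPs had no count.

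Within ages, 11 members rose in the adult pull-down (13.4%, against 6.39% of all genes) and 2 fell (2.44%, against 4.49%). In the young pull-down 20 rose (24.4%, against 13%) and 4 fell (4.88%, against 14.1%). The adult count that rose was 1 without adult supernatant 1, 3 without adult supernatant 2 and 4 without adult IP 1, and the count that fell was 7 without adult IP 2 and 4 without young IP 3. The young count that fell was 2 in 7 of the 10 fits without 1 library. The test of the difference between adult and young called 0 members and 0% of genes by edgeR. At an unadjusted p under 0.05 it had 12 members (14.6%) and 1068 genes (6.53%). The median difference, adult minus young in log2 fold change, was -0.27 over the members and 0.02 over all genes, and 32.9% of members lay above 0, against 51.6% of all genes. limma voom also called 0 members, and DESeq2 called 2, Kcns1 and Kcnk5, both at 0 in the adult IPs. Kcnab2, one of the most abundant members, had 185 and 174 CPM in the adult IPs and 187 and 140 CPM in the adult supernatants, against 136, 142 and 105 CPM in the young IPs and 237, 224 and 164 CPM in the young supernatants. It fell in the young pull-down (log2 fold change -0.75 ± 0.18, adjusted p = 0.011 by edgeR), while the adult difference was 0.12 ± 0.22. The difference of 0.87 ± 0.28 between the ages did not pass the threshold (adjusted p = 0.734 by edgeR).

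The 4 prior pools, sequenced in both sets, show how far a member's level moved with the sequencing set for RNA of the same pool. With the pool as a term, 10 of 77 members tested were higher in the repeat set (13%, against 15.7% of 15573 genes) and 14 lower (18.2%, against 16.7%). Every repeat library lay above every earlier library for 6 members (7.79%, against 9.47% of all genes) and below for 4 (5.19%, against 6.65%). Kcnq3, a pore of the neuronal M-current, had 4.70 and 3.73 CPM in the adult and 3.13 and 3.13 CPM in the young pools in the repeat set, against 1.49 and 1.56 CPM in the adult and 0.675 and 1.26 CPM in the young pools in the earlier set. The sets did not overlap, with a log2 fold change of 1.58 ± 0.25 (SE, adjusted p = 0.000178 by edgeR). This is larger than any age difference of the 4 members described above. Also higher were the sodium-activated Kcnt2 (1.17 ± 0.24), the small-conductance Kcnn3 (0.96 ± 0.20), Kcnh7 (0.79 ± 0.18) and Kcnk10 (0.66 ± 0.19).

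Kcnab2 had 209 and 223 CPM in the adult and 162 and 212 CPM in the young pools in the repeat set, against 263 and 325 CPM in the adult and 302 and 293 CPM in the young pools in the earlier set. All repeat libraries were lower, with a log2 fold change of -0.57 ± 0.07 (SE, adjusted p = 1.97e-05 by edgeR). Kcnk3 (-0.50 ± 0.09), Kcnf1 (-0.47 ± 0.10), Kcnt1 (-0.44 ± 0.12) and Kcnh3 (-0.43 ± 0.10) were lower too. Of the members that rose with age, Kcna1 (0.43 ± 0.07) and Kcnd3 (0.30 ± 0.09) were higher in the repeat set. The age comparison used repeat-set and new libraries alone.

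The direction mostly followed GC content. Members higher in the repeat set had a median transcript GC of 45.9%, and those lower 57.3%. Among all genes the median log2 fold change over 4 bins of GC content with equal numbers of genes, lowest first, was 0.17, 0.04, -0.07 and -0.19. Of the members in those bins 0 of 14, 0 of 18, 4 of 13 and 10 of 29 were lower, against 2.43%, 10.1%, 21.2% and 40.6% of all genes. Members that were higher numbered 5, 3, 0 and 2 in the same bins, against 34.8%, 18.9%, 10.3% and 4.57% of all genes. With offsets for length and GC content, 6 were higher and 8 lower. The shares of all genes in each direction were not counted with these offsets, so the 6 and 8 have no background beside them. The cause was not tested.

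**Figure D5:**
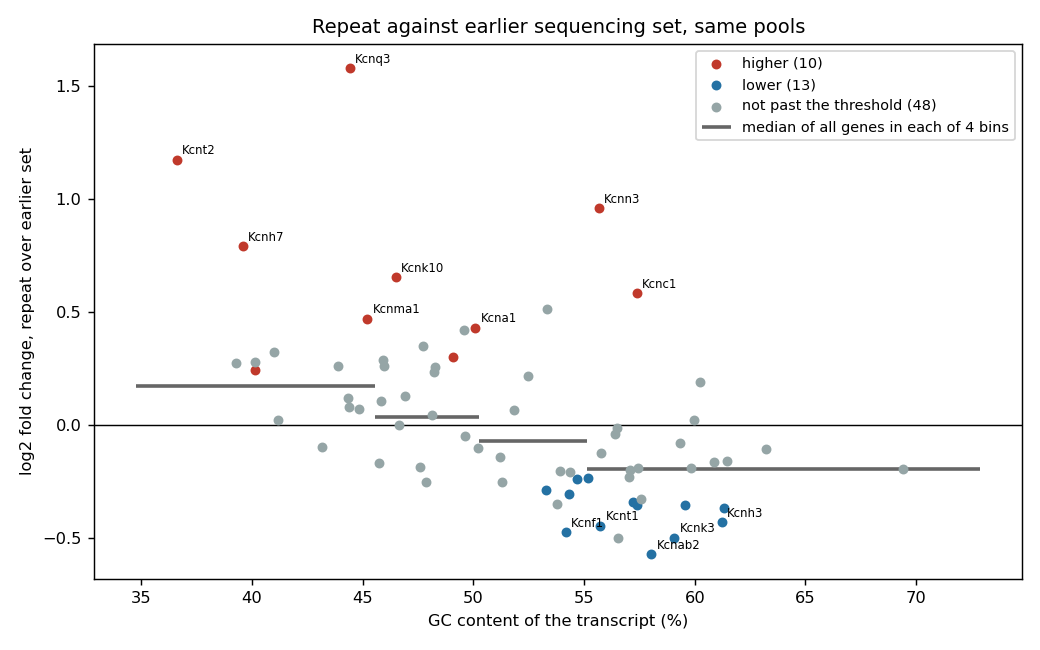
Log2 fold change of the repeat over the earlier sequencing set against transcript GC content for 71 of the 74 members with a mean of at least 1 CPM, with the median of all genes in each of 4 GC bins as bars and the called members with the largest differences named. The members that were lower in the repeat set (blue) lie in the upper GC bins, and Kcnq3, at 1.58, is the highest.

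The GFP-positive IP is 1 library, so its values stand without a replicate check. None of 83 members tested differed from the adult negative IPs by edgeR, with the lone library assumed to vary like the negative ones, and 0.00603% of 16586 genes were called. The median log2 fold change of the GFP-positive IP over the adult negative IPs was -0.052 over the members and -0.018 over all genes. By DESeq2 Kcne4 and Kcnj14 came out lower, which limma voom did not call. Both had no count in the GFP-positive IP, but some negative IPs had none either. The negative IPs ranged from 0 to 6.56 CPM for Kcne4 and from 0 to 8.39 CPM for Kcnj14. The GFP-positive IP lay above all 5 negative IPs for 9 members (10.8%, against 17% of all genes) and below all 5 for 19 (22.9%, against 15.9%). Each negative IP lay above the other 4 for 9 to 20 members, and for 19.2% to 21.1% of all genes. Each lay below them for 13 to 17 members, and for 15.4% to 20.2% of all genes. These counts are against 4 libraries and those of the GFP-positive IP against 5, so they are not directly comparable.

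Among the 19 were Kcnc1, Kcnc2 and Kcnc4 of the Kcnc family, Kcna1, Kcna4, Kcnd3 and Kcnma1. Some lay only just below. Kcnc1 was at 264 CPM against a lowest negative IP of 268 CPM, and Kcna1 at 144 against 147 CPM. Kcnd3 was at 20.5 CPM in the GFP-positive IP and between 37.6 and 63.5 CPM in the negative IPs, and in its own supernatant at 22.4 CPM. Kcnmb4 was at 32.5 CPM in the GFP-positive IP, between 49.6 and 79.1 CPM in the negative IPs and at 70.0 CPM in its own supernatant. Among the 9 members above were Kcnip4, at 129 CPM against 97.1 to 113.0 CPM, Kcnab1, at 99.9 CPM against 55.0 to 90.1 CPM, and Kcnj5, at 10.8 CPM against 0 to 9.09 CPM in the negative IPs. These members of both lists were picked after their values were seen.

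Channel partners outside the Kcn symbols were followed as a list of 24 genes. In the pull-down without a tag 7 of 22 tested rose (31.8%, against 15.8% of all genes) and 6 fell (27.3%, against 16.2%), with a median of 0.03. Ank3, which encodes the ankyrin that anchors Kcnq channels at the axon initial segment, rose by 1.59 ± 0.14, and Cntn2, a cell adhesion partner of juxtaparanodal Kcna channels, by 0.98 ± 0.18. Calm2 and Calm3, encoding calmodulin, changed by -0.95 ± 0.06 and -1.06 ± 0.08, and Vapa and Vapb, whose proteins bind Kcnb channels, by -0.76 ± 0.08 and -1.21 ± 0.10. In adult against young supernatant 1 of 22 rose (4.55%, against 4.16% of all genes), Cntn2 by 0.78 ± 0.17, and 2 fell (9.09%, against 5.6%), Calm3 by -0.36 ± 0.07 and Vapa by -0.26 ± 0.07. The partner median with age was 0.046, beside 0.15 for the channel genes.

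The table does not state whether counting used strand. Genes with an annotated gene on the opposite strand are therefore uncertain, among them Kcnd3, Kcnip4, Kcnab1, Kcnab3, Kcnk1, Kcnk3, Kcnma1, Kcnh3, Kcnh7, Kcnmb4, Kcnn2, Kcnq1 and Kcnt2. Kcnab2 and Kcnk4 each overlap a gene on their own strand.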

How the data were processed

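The authors deposited whole-number read counts, not normalised, for 19269 symbols in 20 libraries. Per the submitters' processing notes the build was mm10, the aligners TopHat2 2.0.13 and Bowtie2 2.2.1, and the other tools DESeq2 1.14.1, HTSeq 0.6.1, Cuffdiff 2.1.1, Cufflinks and FastQC 0.11.3, with no role stated for each. The counting's strand setting is not given in the sources used here, nor is its annotation. Libraries, per the labels' protocols, came from a low-input SMARTer polyA kit.

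Groups came from sample titles. The series text names the GFP-positive supernatant in conflicting ways, and titles and genotypes were followed. All genes were fitted with edgeR 4.0.16 (R 4.3.3): TMM, filterByExpr with a minimum count of 10, quasi-likelihood test and Benjamini-Hochberg adjustment at 0.05. The IP contrasts shared 1 fit of 10 libraries, and their equal-weight mean over age gave the combined contrast. A standard error is the absolute log2 fold change divided by the square root of F. Fits were tested on simulated data. Alternatives were DESeq2 1.42.0, limma voom 3.58.1, other scaling, no filter, leaving out each library, pool block, origin subsets, and length and GC offsets. For the sequencing sets these offsets were chosen after seeing the data. Length, GC content and overlaps came from the GRCm38 (mm10) annotation, matched for 98.4% of symbols. Named members were the called ones with a mean log2 CPM of 0 or more, by size of change, up to 12 in each direction for pull-down and age and up to 5 elsewhere, and each family's highest member per length. Members, lists and rules were chosen with earlier results of these data known. IP and supernatant of 1 number share a pool, per the labels, and their deviations correlated at 0.162 to 0.393 over 14260 genes (pseudocount 0.5 CPM). Pools hold separate mice per the labels. Library depth bounds precision as given by the floor. Some members are included in the fits and counts, but their own results are not reported here or plotted.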

Additional observations from a re-analysis of the deposited data

Results flagged for a closer look

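Dixon's criterion at 95% was applied to the named members in 148 combinations of member and group, each group of 4 or 5 libraries. Chance would mark about 1 in 20 of these, and the criterion marked 4. The negative IP and the negative supernatant groups hold both ages. Kcnv1 stood at 16.1 CPM in young negative supernatant 3, against 5.45 to 6.93 CPM in the other young supernatants. Kcna2 stood at 70.4 CPM in adult negative IP 1, against 143 to 162 CPM in the other negative IPs. Kcns2 stood at 11.0 CPM in adult negative supernatant 1, against 6.62 to 7.83 CPM in the other negative supernatants. Kcnk3 stood at 17.0 CPM in young prior pool 1, against 27.2 to 28.4 CPM in the other prior pools of the repeat set.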

How the results depend on the processing

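Leaving out 1 library at a time gave these ranges of calls. For IP against supernatant, 15 to 28 members were higher, 2 to 11 lower, and 3571 to 5725 genes were called. In adult pools the ranges were 1 to 12, 1 to 7 and 285 to 2398, and in young pools 16 to 23, 2 to 5 and 2842 to 4856. For age by fraction 0 to 67 genes were called. For age in supernatants, 2 to 9 members were higher, 0 to 1 lower, and 731 to 1723 genes were called. For the GFP-positive IP 0 to 1 genes were called. The 15 came without adult supernatant 1, and the 11 and the 67 without adult IP 2, where the main counts were 3 and 0.

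Length and GC offsets gave 13 higher members and 3323 genes in the combined pull-down, 4 higher, 1 lower and 807 genes in adult pools, and 10 higher, 2 lower and 2515 genes in young pools. Kcnma1 turned to -0.087 combined, -0.087 in adult and -0.088 in young pools. Without young IP 2, Kcne4 turned to -3.67 combined (adjusted p = 0.0201 by edgeR) and -8.44 in young pools, since the other 2 young IPs had no count, while its highest values, without young supernatant 3, were 1.57 and 2.05. Of 2690.0 values of named members under an alternative, 2416 kept direction and side of the threshold, 138 lost a call, 26 gained one and 105 changed sign without a call in either fit. For the sequencing sets, offsets chosen after seeing the data gave 6 higher, 8 lower and 3190.0 genes.

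The pool as a replicate block left 26 higher and 3 lower members in the combined pull-down, and 2 lower in young pools, where Kcnn4 and Kcnq1 lost their calls. In adult pools, Kcnd3 and Kcnh2 lost theirs. The same block by title number, in the negative-control supernatants, gave 4 higher and 1 lower member with age. Without the pool block the sequencing sets gave 6 higher, 4 lower and 2292 genes. Young pools alone gave 2526 genes there, and adult pools alone 9 lower members.

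DESeq2 gave 5 lower members and 2897 genes in the adult pull-down, 2 lower and 118 genes for age by fraction, 9 higher members for age, and 2 lower and 210.0 genes for the GFP-positive IP. For age, dropping the origin term gave 1 higher member and 655 genes. New pools alone gave 0 and 481, prior pools 0 and 11 (repeat set) or 0 and 28 (earlier set), and negative-control pools 0 and 256. The causes of these changes were not tested, beyond fewer libraries in the subsets. Depth limits members near the floor, such as Kcne3, and lone-library arms rest on the spread of the other groups.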
